A study of Mus musculus with 4 samples.

Results

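The transcription factor p53 (Trp53) and 9 of its direct target genes, Cdkn1a, Mdm2, Ccng1, Bax, Bbc3, Phlda3, Zmat3, Sesn2 and Trp53inp1, were compared between WT and Haspin-KO mouse embryonic stem cells (mESCs). These 10 genes were taken by gene symbol from a table of 55401 genes, in which each of these 10 symbols occurred once. WT cells were the unmodified E14 mESC line. Haspin-KO cells were E14 cells in which CRISPR/Cas9 with a pair of guide RNAs had disrupted Haspin, the kinase for histone H3 at Thr3 in mitosis, and the lines were single clones picked for lack of that phosphorylation. To make them, cells were transfected with plasmids for the guide RNAs and selected with puromycin, steps not described for WT cells. The part of transfection, selection and cloning in the results was not tested, and the design cannot tell it apart from loss of Haspin. No other treatment is named for the RNA samples of either group. All cells grew in serum medium with LIF and inhibitors of MEK and GSK3 (2i). RNA was sequenced from 2 libraries per group, and the labels tell neither which Haspin-KO clone a library came from nor whether the libraries of a group were separate cultures, so the p-values measure the spread between libraries, which may be technical.

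p53 is held low in unstressed cells by the ubiquitin ligase Mdm2, whose own gene is a p53 target. DNA damage, and also errors or delays in mitosis, can stabilize p53 protein, which then binds response elements near its target genes and raises their transcription. Because this control acts on the protein, the Trp53 transcript is not itself a measure of p53 activity, and the targets serve as its readout. Haspin acts in the alignment of chromosomes, so the targets address whether cells that lack it carry a p53 response.

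The libraries summed to between 14207828 and 21834847 counted reads, and both WT libraries were deeper than both Haspin-KO libraries. All members were well covered, with 353 to 8915 reads in every library. Values are given as CPM, counts scaled by library size with TMM normalization, and the tests were edgeR's quasi-likelihood test on the counts of all 15580 genes that passed its filter on low counts. A gene was called when its p adjusted over all these genes (Benjamini-Hochberg) was under 0.05. Haspin, the targeted gene, had 40.1 and 35.7 CPM in WT and 10.4 and 14.6 CPM in Haspin-KO (log2 fold change -1.60, standard error 0.16, adjusted p = 0.00154). It lies within Itgae on the opposite strand, and since no strand setting of the counting is given, reads of the 2 genes may not be told apart.

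Of the 10 members, 3 rose in Haspin-KO cells, namely Mdm2, Ccng1 and Trp53inp1, each by 1.35 to 1.41 times. Over all genes tested, 0.988% were called higher. Sesn2 and Zmat3 had folds of 1.24 and 1.23 and were not called. Trp53 itself, Cdkn1a, Bax, Bbc3 and Phlda3 had folds of 0.913 to 1.10 and were not called either. No member was called lower by edgeR, DESeq2 or limma. In edgeR 1.51% of all genes were called lower, a share at which 0 of 10 members says little. Limma called only 21 genes lower on log2(FPKM + 0.1) and 0 on log2(FPKM + 1). At an unadjusted p under 0.05 in edgeR, 0 members were lower, against 10.4% of all genes tested. None of the members reached a fold change of 2.

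**Figure D1:**
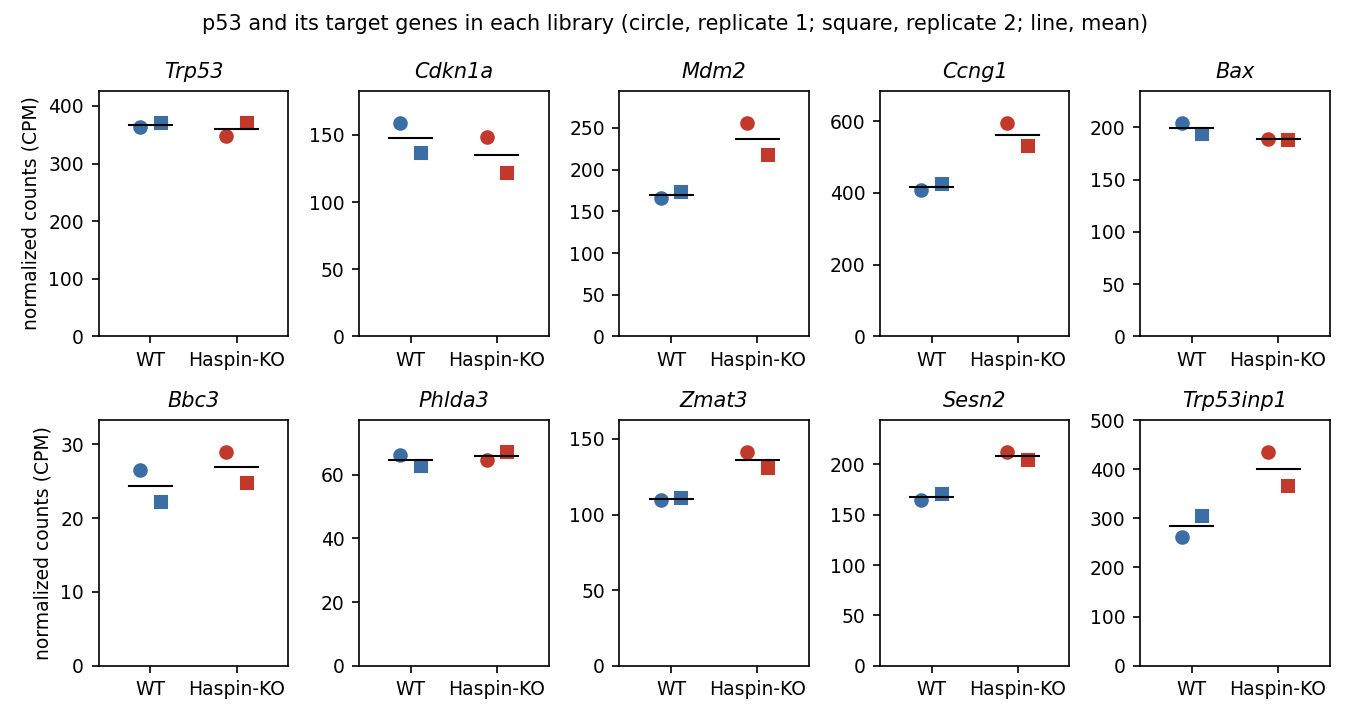
Normalized counts (CPM, linear axes from 0) of the 10 members in each library, with WT in blue and Haspin-KO in red, circles for replicate 1, squares for replicate 2 and a line for the mean of each group. Both Haspin-KO points lie above both WT points for Mdm2, Ccng1, Zmat3, Sesn2 and Trp53inp1.

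RefSeq promoter windows (build GRCm38.p6, 250 bases before to 50 after each annotated start) were given for 8 of the members, in 11 windows. They were searched for the p53 decamer, the 10-base unit of which a p53 response element holds a pair, and a match is a match of letters, since binding was not measured. Its definition is the same on both strands, so that each match counts for both. Of the 8 members, 5 held a match, against 9.55% of 27025 genes with a window and 8.21% of the tested genes with one. The members were chosen as direct p53 targets, so a higher share is built into the list and is not a result. The matches are printed with 10 bases on either side, 5′ to 3′ on the strand of the gene, and capitals mark the decamer.

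Cdkn1a, nearer the start: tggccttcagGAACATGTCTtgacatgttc

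Cdkn1a, farther from the start: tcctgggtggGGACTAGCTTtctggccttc

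Mdm2: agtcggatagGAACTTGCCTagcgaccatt

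Ccng1: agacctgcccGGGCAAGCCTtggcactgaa

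Bax: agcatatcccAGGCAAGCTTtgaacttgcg

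Trp53: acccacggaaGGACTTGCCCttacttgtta

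In Cdkn1a the nearer match lay 51 to 42 bases before the farther upstream of its 2 annotated starts (window chr17:29090918-29090947, plus strand), and the 10 bases that follow it without a gap missed the definition at 1 position. The other Cdkn1a match lay 73 to 64 bases before the same start (chr17:29090896-29090925), and the 10 bases before and after it missed the definition at 8 and 7 positions. The Ccng1 match lay 185 to 176 bases before the start (chr11:40755452-40755481, minus strand), and the 10 bases just before it missed the definition at 1 position. The Mdm2 match lay 186 to 177 bases before the start (chr10:117710925-117710954, minus strand), with 6 and 5 positions missed before and after it. The Bax match lay 201 to 192 bases before the start (chr7:45467080-45467109, minus strand), with 3 and 6 positions missed. The Trp53 match lay 75 to 66 bases before the start (chr11:69580274-69580303, plus strand), with 6 and 3 positions missed. An adjoining second unit within 1 position of the definition thus stood beside 2 of the 6 matches, the nearer Cdkn1a match and that of Ccng1. None of the printed windows overlaps an exon of the GENCODE M21 annotation. Bbc3, Phlda3 and Sesn2 held no match in their windows, which says nothing about elements elsewhere, and Zmat3 and Trp53inp1 were not matched to a window. Of the members that rose, Mdm2 and Ccng1 held a match and Trp53inp1 was not searched. Of those not called, Trp53, Cdkn1a and Bax held a match, Bbc3, Phlda3 and Sesn2 held none, and Zmat3 was not searched.

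Mdm2 (ENSMUSG00000020184, chromosome 10 of mm10, 117688875 to 117710758, minus strand) encodes the ligase that targets p53 for degradation. It had 166 and 173 CPM in WT and 256 and 217 CPM in Haspin-KO. Both Haspin-KO libraries were above both WT libraries, and Haspin-KO replicate 1 was the highest. The log2 fold change was 0.48 (standard error 0.089, 95% confidence interval 0.28 to 0.68, adjusted p = 0.0271), a fold of 1.40.

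Trp53inp1 (ENSMUSG00000028211, chromosome 4, 11156431 to 11174379, plus strand) encodes a stress protein that promotes p53 phosphorylation and also acts in autophagy. It had 263 and 305 CPM in WT and 436 and 367 CPM in Haspin-KO. The groups did not overlap, although the libraries of each group differed by 0.21 (WT) and 0.25 (Haspin-KO) on the log2 scale. The log2 fold change was 0.50 (standard error 0.10, 95% confidence interval 0.27 to 0.72, adjusted p = 0.0348), a fold of 1.41, the highest among the members.

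Ccng1 (ENSMUSG00000020326, chromosome 11, 40748552 to 40755311, minus strand) encodes cyclin G1, which recruits the phosphatase PP2A to Mdm2. It had 408 and 426 CPM in WT and 596 and 529 CPM in Haspin-KO. Again Haspin-KO replicate 1 was the highest and the groups did not overlap. The log2 fold change was 0.43 (standard error 0.077, 95% confidence interval 0.26 to 0.61, adjusted p = 0.0249), a fold of 1.35.

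Each of these 3 calls needed both WT libraries. Without WT replicate 1 the adjusted p was 0.129 for Mdm2, 0.117 for Ccng1 and 0.179 for Trp53inp1, and without WT replicate 2 it was 0.0925, 0.0798 and 0.0569. In these fits the lone WT library was taken to vary like the Haspin-KO pair. Without Haspin-KO replicate 1, the highest library, the log2 fold changes of Mdm2, Ccng1 and Trp53inp1 were 0.36, 0.35 and 0.37. There the lone Haspin-KO library was in turn taken to vary like the WT pair. On the log2 scale that pair differed by 0.059, 0.062 and 0.21 for these genes, against 0.24, 0.17 and 0.25 for the Haspin-KO pair. Calls from such a fit therefore do not show that a result holds without that library. Over the 12 alternative settings the adjusted p ran from 1.4e-12 to 0.275 for Mdm2 and from 1.7e-10 to 0.266 for Ccng1. For Trp53inp1 it ran from 5.2e-14 to 0.289. The direction was the same in all settings. The lowest values came from the fit with replicate number as a block, which left 1 residual degree of freedom. DESeq2 and edgeR with other scaling or filters called each of these genes, and neither limma fit called any of them.

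Sesn2 (ENSMUSG00000028893, chromosome 4, 132492032 to 132510501, minus strand) encodes sestrin 2, an inhibitor of mTORC1 signaling under stress. It had 165 and 171 CPM in WT and 213 and 204 CPM in Haspin-KO, without overlap. The log2 fold change was 0.31 (standard error 0.071, 95% confidence interval 0.15 to 0.47), and its adjusted p of 0.0535 lay just above the threshold. DESeq2 called it (adjusted p = 0.0325), and over all alternatives the adjusted p ran from 1.3e-05 to 0.273.

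Zmat3 (ENSMUSG00000027663, chromosome 3, 32334792 to 32366014, minus strand) encodes a zinc finger protein that binds RNA and regulates splicing. It had 110 and 111 CPM in WT and 141 and 131 CPM in Haspin-KO, again without overlap. The log2 fold change was 0.30 (standard error 0.078, 95% confidence interval 0.13 to 0.47, adjusted p = 0.0768).

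Among the 10 members, 5 therefore had both Haspin-KO libraries above both WT libraries, against 25.3% of all genes tested, and 1, Bax, had both below, against 26.9%. The same 5 genes were those with an unadjusted p under 0.05 and a higher value in Haspin-KO, against 10.4% of all genes in that direction and likewise 10.4% in the other. The median log2 fold change of the members was 0.22, against -0.0039 over all genes tested. These shares and medians describe a list that was chosen with earlier results of these data known.

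Cdkn1a (ENSMUSG00000023067, chromosome 17, 29090976 to 29100727, plus strand) encodes p21, the CDK inhibitor through which p53 arrests the cell cycle. It had 159 and 136 CPM in WT and 148 and 122 CPM in Haspin-KO, so the groups overlapped. The log2 fold change was -0.13 (standard error 0.11, 95% confidence interval -0.38 to 0.12, adjusted p = 0.530). The upper end of the interval is a fold of 1.08, below the lower end of 1.22 for Mdm2, 1.20 for Ccng1 and 1.21 for Trp53inp1, although differences between genes were not tested. Without Haspin-KO replicate 2 the log2 fold change was 0.0012, so its sign rested on that library.

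Trp53 (ENSMUSG00000059552, chromosome 11, 69580359 to 69591873, plus strand) had 364 and 371 CPM in WT and 348 and 371 CPM in Haspin-KO. The groups overlapped, and the 95% confidence interval of the fold ran from 0.878 to 1.09. The transcript of p53 itself was thus not detectably changed, within about that range.

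Bax, Bbc3 and Phlda3 are target genes tied to cell death. Bax (ENSMUSG00000003873) encodes a pore-forming protein of the mitochondrial outer membrane and had 205 and 194 CPM in WT and 189 and 188 CPM in Haspin-KO. Both Haspin-KO libraries were lower than both WT libraries, but the gene was not called (95% confidence interval of the fold 0.847 to 1.06, adjusted p = 0.562). Bbc3 (ENSMUSG00000002083), which encodes the BH3-only protein PUMA, had 26.5 and 22.2 CPM in WT and 29.0 and 24.7 CPM in Haspin-KO, with overlap and an interval of 0.895 to 1.36. Phlda3 (ENSMUSG00000041801), which encodes a repressor of Akt, had 66.3 and 62.7 CPM in WT and 64.6 and 67.2 CPM in Haspin-KO, with overlap and an interval of 0.896 to 1.16. In both Haspin-KO and WT, replicate 1 was the higher library for Bbc3 and for Cdkn1a.

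**Figure D2:**
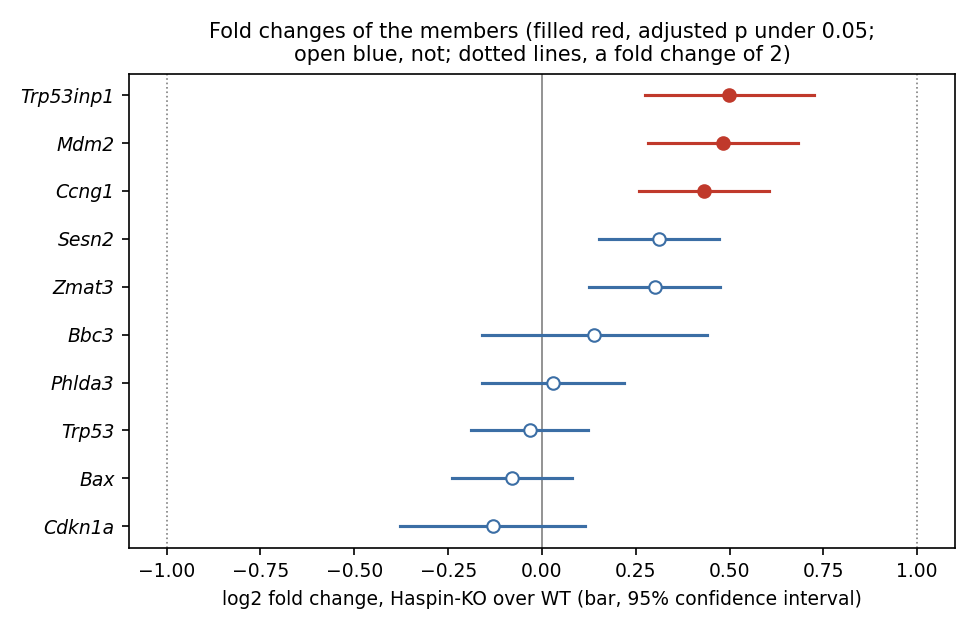
Log2 fold change of each member in Haspin-KO over WT with its 95% confidence interval from edgeR, sorted, with filled red points for an adjusted p under 0.05 and dotted lines at a fold change of 2. The intervals of Mdm2, Ccng1 and Trp53inp1 start at 0.26 or above, and those of Cdkn1a, Bax and Trp53 end at 0.12 or below.

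Ratios within a library do not depend on how libraries are scaled. The reads on Mdm2 were 1.04 and 1.27 times those on Cdkn1a in WT and 1.73 and 1.79 times in Haspin-KO. For Trp53inp1 over Cdkn1a the ratio was 1.65 and 2.23 in WT and 2.93 and 3.01 in Haspin-KO. For Ccng1 over Cdkn1a it was 2.56 and 3.12 in WT and 4.01 and 4.35 in Haspin-KO. In all 3 ratios the Haspin-KO libraries were above the WT libraries, and the Haspin-KO pair lay closer together than in the CPM of the same genes, whereas the WT pair lay farther apart. Mdm2 over Trp53 was 0.456 and 0.466 in WT and 0.737 and 0.586 in Haspin-KO. These ratios carry no test, and the pairs were chosen after the values were seen.

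**Figure D3:**
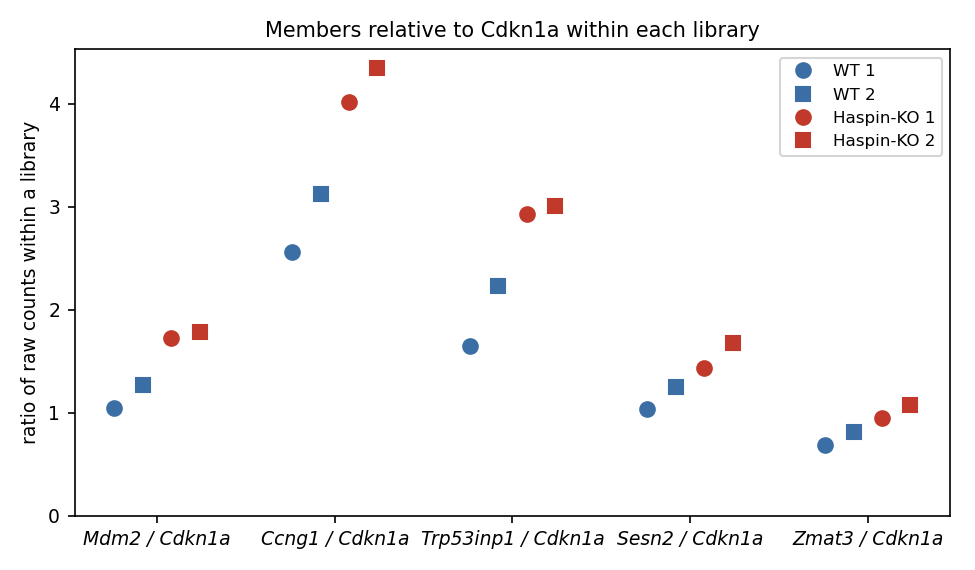
Raw counts of Mdm2, Ccng1, Trp53inp1, Sesn2 and Zmat3 divided by those of Cdkn1a in the same library (linear axis from 0), with WT in blue and Haspin-KO in red. For all 5 genes both Haspin-KO ratios lie above both WT ratios, for example 1.73 and 1.79 against 1.04 and 1.27 for Mdm2.

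Per length, the members spanned more than a 10-fold range in WT cells. As FPKM, which divides counts by exonic length and library total, Bax had 126 ± 5.42 and Ccng1 118 ± 2.99 (SD, n = 2 libraries). These 2 levels lay within their combined spread, taken here as the sum of the 2 SDs. That measure is wide, and differences in level between genes were not tested. Trp53 followed with 90.6 ± 0.757 FPKM. Sesn2 (48.1 ± 0.884), Trp53inp1 (43.7 ± 4.32), Cdkn1a (41.5 ± 4.72) and Phlda3 (41.3 ± 1.85) came next, and none of them was separated from its neighbour in this order by more than the combined spread. Mdm2 had 33.3 ± 0.799 FPKM. Bbc3, with 12.5 and 10.4 FPKM in the 2 WT libraries, and Zmat3, with 9.61 and 9.66 FPKM, were lowest. In Haspin-KO cells Ccng1 (160 ± 15.9) stood above Bax (120 ± 2.14), by more than their combined spread. Mdm2 (46.6 ± 6.14) was above Cdkn1a (38.1 ± 5.90) in Haspin-KO cells by less than that spread, in the reverse of the WT order.

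The members lie on 7 chromosomes, whose median log2 fold change over all tested genes was between -0.076 (chromosome 7) and 0.050 (chromosome 1). Mdm2, Ccng1 and Trp53inp1 lie on chromosomes 10, 11 and 4, with medians of 0.0065, -0.042 and -0.014. Annotated genes overlap Cdkn1a (on the opposite strand), Bax and Sesn2. They had at most 56 reads in any library, and how shared reads were assigned is not stated.

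Outside the members, 34 other genes known as direct p53 targets were all tested, and 3 of them rose and 0 fell in edgeR. The number with an unadjusted p under 0.05 was 11 higher and 1 lower, and DESeq2 called 5 higher and 0 lower. The median log2 fold change of this list was 0.15, with 26 of 34 genes above 0. Over all 15580 genes tested, 7690 were above 0, and 0.988% were called higher and 1.51% lower in edgeR. At an unadjusted p under 0.05, 10.4% of all genes were higher and 10.4% lower. The same background applies to the lists that follow. Slc19a2, a thiamine transporter, had 126 and 136 CPM in WT and 172 and 170 CPM in Haspin-KO (log2 fold change 0.39, standard error 0.075, adjusted p = 0.0324). Perp, a desmosome component linked to p53-dependent death, had 19.9 and 15.1 CPM in WT and 33.8 and 27.2 CPM in Haspin-KO (0.79, standard error 0.16, adjusted p = 0.0359). Plk2, a polo-like kinase of centriole duplication, had 61.2 and 56.8 CPM in WT and 102 and 76.9 CPM in Haspin-KO (0.60, standard error 0.13, adjusted p = 0.0412). Of the 34 genes, 16 had both Haspin-KO libraries above both WT libraries, these 3 among them, and 5 had both below. The shares over all genes tested were 25.3% and 26.9%. Apaf1, the scaffold of the apoptosome, had 81.2 and 86.6 CPM in WT and 119 and 103 CPM in Haspin-KO (adjusted p = 0.0561). Without WT replicate 1 only Perp was still called among these genes (adjusted p = 0.0365). Without WT replicate 2 none of Slc19a2, Perp and Plk2 was (0.0823, 0.143 and 0.150), whereas Pmaip1, a BH3-only protein with an adjusted p of 0.208 from all libraries, was (0.0237). Plk2 was also not called without Haspin-KO replicate 1 (0.0503). Over the 12 alternatives the adjusted p ran from 5.1e-08 to 0.248 for Slc19a2, from 6.7e-12 to 0.277 for Perp, from 1.5e-14 to 0.299 for Plk2, from 1.6e-07 to 0.294 for Apaf1 and from 2.0e-07 to 0.678 for Pmaip1.

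Of 18 regulators of p53, which include its kinases, ligases and partners, 0 were called in either direction by edgeR, with 5 higher and 1 lower at an unadjusted p under 0.05. DESeq2 called 1 of them higher, and limma called 0. Of the 18 regulators, 9 had both Haspin-KO libraries above both WT libraries and 3 had both below, against 25.3% and 26.9% of all genes tested. The 4 with the smallest p were Mdm4, Atm, Usp7 and Atr. Mdm4, the partner of Mdm2 that inhibits p53, had 404 and 417 CPM in WT and 515 and 491 CPM in Haspin-KO (adjusted p = 0.0553 in edgeR, 0.0223 in DESeq2, and 3.4e-05 to 0.282 over all alternatives). Atm, the kinase activated by DNA breaks, had 108 and 125 CPM in WT and 140 and 154 CPM in Haspin-KO (adjusted p = 0.0870). Usp7, a deubiquitinase of p53 and Mdm2, and Atr, the kinase activated by replication stress, had log2 fold changes of 0.22 and 0.25 (adjusted p = 0.108 and 0.121). Usp28 and Trp53bp1, which relay mitotic delay to p53, had log2 fold changes of 0.071 and 0.035 (adjusted p = 0.671 and 0.852). The paralogs Trp73 and Trp63 had log2 fold changes of 0.65 and 1.12 (adjusted p = 0.0511 and 0.223), and Trp63 rested on values under 1 CPM.

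p53 represses many cell cycle genes indirectly, through p21 and the DREAM complex. Of 18 such genes, edgeR called 0 in either direction, with 0 higher and 4 lower at an unadjusted p under 0.05, and neither DESeq2 nor limma called any. Their median log2 fold change was -0.039. The 4 with the smallest p were the replication helicase subunit Mcm5 (log2 fold change -0.25), the mitotic cyclin Ccnb2 (-0.21), Aurkb (-0.18), the kinase of the chromosomal passenger complex, and the transcription factor E2f1 (-0.21), with adjusted p of 0.111 to 0.238. Ccnb1 and Cdk1, which drive entry into mitosis, had log2 fold changes of 0.025 and 0.048.

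Among 17 genes of the Bcl-2 family, the caspases and their cofactors, 15 were tested, 1 rose and 0 fell, with 3 higher and 3 lower at an unadjusted p under 0.05. The gene that rose was Cycs, cytochrome c, with 34.8 and 35.5 CPM in WT and 50.3 and 55.5 CPM in Haspin-KO (log2 fold change 0.59, standard error 0.095, adjusted p = 0.0158). It was not called without WT replicate 1 or 2 (adjusted p = 0.0946 and 0.0798), within 1.9e-10 to 0.210 over all alternatives. Cycs has processed pseudogenes, and how reads shared with them were counted is not stated. The initiator caspase Casp9 (log2 fold change -0.37, adjusted p = 0.0875) and the pore-forming protein Bak1 (-0.27, adjusted p = 0.144) were not called.

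**Figure D4:**
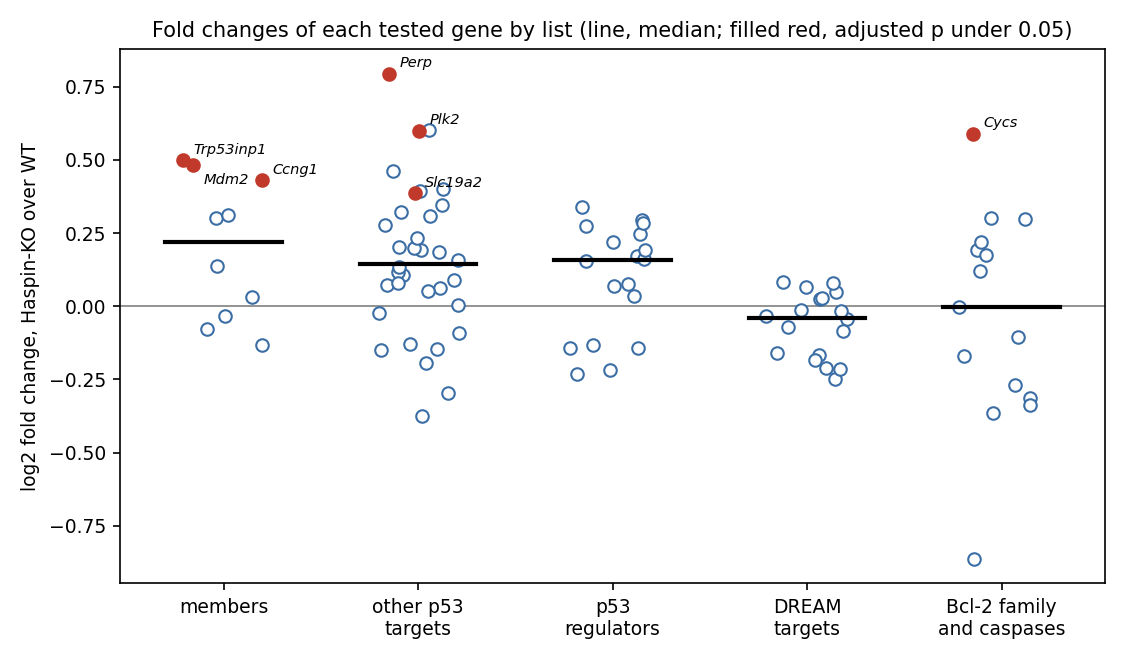
Log2 fold change in Haspin-KO over WT of each tested gene, by list (10 members, 34 other p53 targets, 18 p53 regulators, 18 DREAM targets and 15 genes of the Bcl-2 family and caspases), with filled red points and names for an adjusted p under 0.05 and a line at each median. The medians are 0.22, 0.15, 0.16, -0.039 and -0.00097.

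The KEGG p53 signaling pathway, as assigned in the deposited table, held 196 entries, of which 78 were tested, and it includes 8 of the members. Apart from the members, 70 of its genes were tested, and 2 were called higher (Perp and Cycs) and 3 lower, among them Thbs1 and Ccnd2. At an unadjusted p under 0.05, 17 of these 70 genes were higher and 8 lower. Their median log2 fold change was 0.064, with 42 of 70 above 0. This list was added after the data were seen. Thbs1 is also one of the fibroblast markers described next, and Ccnd2 encodes cyclin D2.

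Cells of both groups were passaged on mitomycin C-treated mouse embryonic fibroblasts or plated on gelatin for assays, and the labels do not tell which applied to the RNA samples. Of 24 fibroblast markers, 18 were tested, 12 were called lower in Haspin-KO and 0 higher. Without Fn1, which lay at 1535 to 1666 CPM in all libraries and was not called, the other 23 markers summed to 354 to 477 CPM in WT and to 74.6 to 80.4 CPM in Haspin-KO. In Haspin-KO libraries 6 of the 24 had no read in either library, among them Lox, Postn, Dcn and Twist2, whereas only Lum had none in WT. Thbs1 had 89.4 and 61.9 CPM in WT against 4.73 and 3.36 CPM in Haspin-KO, and Col5a1 had 38.5 and 30.1 CPM against 31.2 and 25.4 CPM and was not called. The part of these markers' change in the results on p53 targets, or in the ratios to Cdkn1a, was not tested. In bulk RNA, a smaller share of one cell type cannot be told apart from less of its RNA per cell. All 12 mESC markers were tested and 0 were called by edgeR in either direction, with 1 higher and 2 lower at an unadjusted p under 0.05. DESeq2 called Klf4 lower (adjusted p = 0.0335). Tfcp2l1 had 1017 and 1088 CPM in WT and 1091 and 1096 CPM in Haspin-KO, Pou5f1 had 1072 and 1029 against 933 and 977 CPM, and Dppa5a had 971 and 981 against 866 and 823 CPM.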

How the data were processed

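RNA was harvested with TRIzol, and 4 mRNA libraries (2 WT, 2 Haspin-KO) were sequenced. The authors trimmed reads with Cutadapt (1.9.1), mapped them to mm10 with Hisat2 (2.0.1) and deposited unnormalized counts per gene. The submitters' processing notes also name HTSeq (0.6.1) and DESeq2. The strand setting and annotation release are not given in the sources used here. The deposited FPKM values matched the counts, gene lengths and library totals in 100% of values within 0.01. Coordinates of all 10 members equalled those of GENCODE M21 (GRCm38).

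From the counts, edgeR (4.0.16, R 4.3.3) was run without a block, with its filter on low counts and TMM. Standard errors are the log2 fold change over the square root of F. DEGs also needed a fold change over 2. Alternatives were DESeq2 (1.42.0), limma (3.58.1) on log2(FPKM + 0.1 or 1) with FPKM of at least 0.5 in 2 libraries, other scaling, other filters, the replicate block and leaving out each library. Members and lists were chosen with earlier results of these data known. Genes named from a list were those called and, up to 4, those with the smallest p, and of cell type markers the 3 with most reads. Some genes that this rule selects are not reported here. Any further gene or ratio named was picked with its values known. In simulated data for this comparison, edgeR (15517 genes) recovered 20% of well-covered genes changed 1.25-fold. It recovered 76% at 1.5-fold and 98% at 2-fold, with 14 false calls. Limma on FPKM (14765 genes) recovered 0% at these sizes and made 37 false calls.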

Additional observations from a re-analysis of the deposited data

How the results depend on the processing

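The directions of Mdm2, Ccng1, Trp53inp1, Sesn2, Zmat3, Bax and Bbc3 held under all 12 alternative fits. The counts of calls were less stable. DESeq2's size factors, library totals or a minimum of 10 counts in every library left 3 members called. Limma on log2(FPKM + 0.1) and on log2(FPKM + 1) called 0 members, 0 other p53 targets and 0 genes of the Bcl-2 family, and over all genes 21 higher and 21 lower with the first and 0 and 0 with the second. Its log2 fold changes were 0.48 and 0.47 for Mdm2, 0.43 and 0.43 for Ccng1 and 0.50 and 0.49 for Trp53inp1. In the simulated data limma recovered none of the changes of this size. Those counts were drawn from edgeR's fitted dispersions, so they cannot decide why limma called no member here. DESeq2 called 5 other p53 targets and 1 regulator higher, and Sesn2 (0.31). Without a filter on low counts, 448 genes were higher and 724 lower, with Sesn2 at 0.28, 6 other p53 targets and 2 regulators higher, and 1 other p53 target, 1 DREAM target and 1 gene of the Bcl-2 family lower. At an unadjusted p under 0.05 there were 1615 and 1627 genes, with 5 members, 11 other p53 targets, 5 regulators and 3 genes of the Bcl-2 family higher and 0, 1, 1 and 3 lower, and 4 DREAM targets lower. With a fold change over 2 there were 51 and 78 genes, and 0 members, other p53 targets or Bcl-2 family genes.

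With each library left out, the counts over all genes ran from 33 to 446 higher and from 61 to 432 lower, and those higher from 0 to 5 for the members, 1 to 4 for the other p53 targets, 0 to 2 for the regulators and 0 to 2 for the Bcl-2 family, with 0 to 1 DREAM targets lower. The log2 fold changes ran from 0.36 to 0.59 for Mdm2, 0.35 to 0.51 for Ccng1, 0.37 to 0.61 for Trp53inp1, 0.28 to 0.34 for Sesn2 and 0.24 to 0.35 for Zmat3. They changed sign for Trp53 (-0.084 to 0.016), Cdkn1a (-0.28 to 0.0012) and Phlda3 (-0.0075 to 0.068). The cause was not tested.

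The libraries share only replicate numbers. Their differences between replicates 1 and 2 in WT and Haspin-KO had r = 0.338 across genes, which are not independent. With the replicate block, which left 1 residual degree of freedom, 1775 genes were higher and 1739 lower. The members called were 5, with Sesn2 (0.31) and Zmat3 (0.30) added, and 12 other p53 targets, 6 regulators and 4 genes of the Bcl-2 family were higher, while 1, 1 and 4 of these lists and 5 DREAM targets were lower. With 2 libraries per group, changes as small as those of Sesn2 and Zmat3 are at the limit of detection.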
